A study of Mus musculus with 10 samples.

Results

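This account covers H3K4me2 around the transcription start sites (TSS) of mouse genes over the whole sampled course of retina maturation, from the embryonic stage E17.5 to postnatal day 15 (PN15). All 20045 gene symbols of the deposited table were taken, and for each the PN15 value was compared with the E17.5 value, in both directions. The series holds 10 ChIP-Seq samples, of which 8 have a column in that table, a single library of H3K4me2 and a single one of H3K27me3 for E17.5, PN1, PN7 and PN15 each. The compared groups are thus retinas at E17.5 and retinas at PN15, both immunoprecipitated with an antibody against H3K4me2, and PN1 and PN7 give the course between them. The study's methods give wild type C57BL/6j mice for these stages and 20 retinas for a preparation of nuclei, so animals were pooled. The sample labels instead give rd1/rd1 as the strain of all libraries and E17 as the embryonic stage. Among the sample titles only that of a PN30 library, which has no column in the table, names rd1. Which statement of the strain is right was not resolved. With 1 library a side there is no replicate and no p-value, and the intervals below cover counting error only.

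H3K4me2 is dimethylation of lysine 4 of histone H3, found at active promoters and enhancers and at promoters that are held ready for use. H3K27me3, trimethylation of lysine 27, is laid down by Polycomb complexes at silenced genes, and promoters of developmental regulators can carry both marks. At E17.5 the mouse retina still holds many dividing progenitor cells, along with ganglion, amacrine, horizontal and cone cells that have already been born. Most rods, the bipolar cells and the Mueller glia are born around and after birth, and rods then form outer segments and synapses and become the most abundant cell of the retina.

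The values are normalized occupancies: the authors' sums of reads within 2.5 kb of a TSS, scaled to the mapped reads of the library and rounded. From the steps between the deposited whole numbers, 1 read was worth 0.54 at E17.5, and at most 1 at PN15. A floor of 3 reads was thus 1.61 at E17.5 and 3 at PN15. Over all entries the medians of the successive stages were 42, 28, 24 and 43. The PN7 library stood apart, with 19.5% of entries at 0 against 0.362% to 2.52% in the other H3K4me2 libraries. The 1047 olfactory receptor symbols, a family that the retina does not use, had a median of 2 at both ends of the course and a 99th percentile of 6 at E17.5 and 9.54 at PN15.

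In 11 stretches of the table around symbols with a hyphen, the E17.5 H3K4me2 values stood in another row order than the other columns. The stretches hold 328 entries of 271 symbols, mostly H2 and Vmn1r genes. In the H2 stretch (53 entries) the E17.5 values had a correlation of -0.04 with the PN1 values as listed, and of 0.93 once the rows were sorted with hyphens ignored, both across entries, which are not independent. The PN15 values of the same entries correlated with PN1 at 0.89 as listed and at 0.04 when so sorted. The E17.5 values of these 271 symbols therefore may belong to neighbouring symbols. Counts are given with and without them, and none of these symbols is described as having gained or lost the mark.

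A symbol is called gained when its PN15 value plus 1 was at least 2 times its E17.5 value plus 1 and the exact Poisson 95% intervals of the values did not overlap, and lost when the same held downward. On this rule 626 of 20045 symbols gained H3K4me2 (3.12%) and 863 lost it (4.31%). Without the displaced symbols 601 of 19774 gained (3.04%) and 843 lost (4.26%). Of the calls, 42.0% were gains. This share was 31.7% when changes were centred on their median, 32.2% when they were centred on a lowess curve of change against level, and 21.5% when both libraries were rescaled to the same sum. The median log2 ratio over all symbols was 0.13, with quartiles of -0.36 and 0.50, and rescaling to the same sum turned it to -0.076. A ratio of at least 4 was reached by 145 gained and 208 lost symbols, of at least 8 by 41 and 37, and of at least 16 by 10 and 3. Without the displaced symbols these counts were 127 and 193, 31 and 29, and 8 and 0. On 2-fold alone, with no look at the intervals, 7.84% of symbols were higher and 11.7% lower. Just inside the limit, Abcb8 had 34 at E17.5 and 69 at PN15 and Cacna1g had 57 and 28. Just outside it, Slc30a7 had 96 and 192 and Epha4 had 122 and 61.

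**Figure D1:**
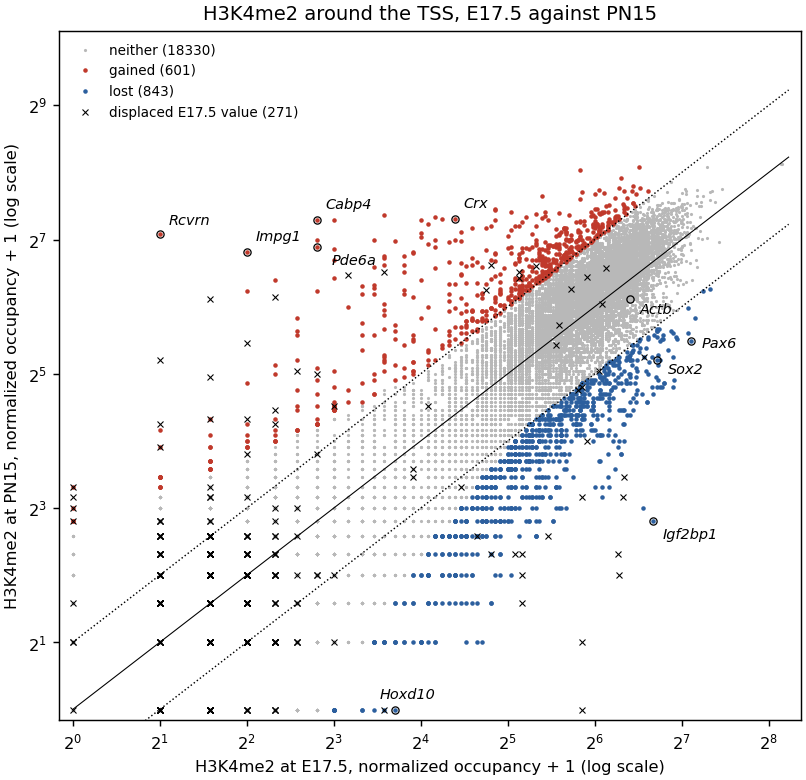
H3K4me2 occupancy plus 1 of each symbol at E17.5 (horizontal) and PN15 (vertical), both on log2 axes, with 1 library each. Red points are the 601 gained and blue points the 843 lost symbols, crosses are the 271 symbols with a displaced E17.5 value, the solid line marks equal values and the dotted lines a 2-fold difference.

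The shares called moved with the level of the mark, and so did the change over all symbols. Without the displaced symbols, the median log2 ratio was -0.23 at a mean of both values from 20 to under 40. It was 0.20 from 40 to under 80 and 0.38 at 80 and over. Among the same symbols 5.54% gained and 0.281% lost at a mean of both values of at least 80. At a mean from 20 to under 40 the shares were 3.16% gained and 16.5% lost. Taking the olfactory 99th percentile as a limit, 67.3% of all symbols, displaced ones included, were above it at both stages and 26.4% at neither. Only at E17.5 were 1060 symbols above it, of which 294 were called lost. Only at PN15 were 208 above it, of which 77 were called gained. The others of these symbols differed by less than 2-fold between the stages or had overlapping counting intervals.

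Most genes of the rod phototransduction cascade carried little H3K4me2 at E17.5, PN1 and PN7 and were well marked at PN15. In this cascade light leads to the activation of transducin, which activates a cGMP phosphodiesterase and so closes the cGMP-gated channel. Of 9 measured members 8 gained (88.9%) and none was lost, beside 3.12% gained and 4.31% lost over all symbols, and the median log2 ratio was 2.98. These are whole retinas, so more rods and more mark in each rod cannot be told apart. Gnat1, the rod transducin alpha subunit, had 11, 8, 8 and 105 over the stages from E17.5 to PN15. The phosphodiesterase subunit genes went together: Pde6a had 6, 6, 7 and 118, Pde6b had 10, 20, 21 and 95, and Pde6g had 10, 14, 17 and 79. Cnga1, the channel subunit (mm9 chr5:72994935-73033991, minus strand), had 6, 6, 13 and 126, the highest PN15 value of the cascade. Slc24a1, the sodium, calcium and potassium exchanger of rods, had 14, 9, 3 and 111. It was the only gained member of the cascade with H3K27me3 of at least 50 at E17.5, and that mark went from 182 to 40. Gnb1, the transducin beta subunit, which many cells use, was not called, with 80, 51, 55 and 100.

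Genes that end the light response and adjust it to calcium followed, with 8 of 11 gained (72.7%, beside 3.12% of all symbols), none lost and a median of 2.38. Under each of the 3 other scalings 7 of the 11 gained. Rcvrn (mm9 chr11:67508828-67516835, plus strand) encodes recoverin, a calcium sensor of photoreceptors, and had the largest ratio of all symbols. Its values were 1, 9, 10 and 134. The E17.5 value stands for 2 reads (interval 0.13 to 3.87), so the PN15 value was 134 times higher with a counting interval of 34.0 to 1044. Grk1, a receptor kinase of photoreceptors, had 11, 9, 25 and 65, and Sag, rod arrestin, had 9, 15, 16 and 53. The guanylate cyclase genes differed. Gucy2f had 8, 8, 2 and 63, while Gucy2e was already marked, with 42, 26, 38 and 91. Guca1b, a cyclase activating protein, had 9, 4, 7 and 72. The GTPase complex that resets transducin was not called: Rgs9 had 51, 34, 47 and 85, Rgs9bp had 100, 67, 135 and 174, and Gnb5 had 63, 35, 43 and 118.

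Among genes of the rod outer segment and its support 18 of 21 gained (85.7%, beside 3.12% of all symbols) and 1 was lost, with a median of 2.02. Impg1, a proteoglycan of the matrix between photoreceptors, had 3, 4, 6 and 112, the second largest ratio of the symbols that were not displaced. Aipl1, a chaperone of the phosphodiesterase, had 15, 16, 20 and 155. Prph2, which forms the disc rim, had 19, 10, 15 and 72, and its partner Rom1 had a higher start, with 43, 51, 73 and 120. Kcnv2, a photoreceptor potassium channel subunit, had 10, 9, 37 and 77. Abca4, the retinoid transporter of discs, had 36, 26, 34 and 160, and Tulp1, needed for transport to the outer segment, had 22, 20, 52 and 81. These latter 2 carried H3K27me3 at E17.5, with 169 for Abca4 and 273 for Tulp1, and had 37 and 49 at PN15. Crb1 went the other way. This gene of the outer limiting membrane had 88, 66, 11 and 25 and was lost.

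Photoreceptor transcription regulators gained in part. Of 16, 6 gained (37.5%, beside 3.12% of all symbols) and none was lost, with a median of 0.76. Under lowess centring 5 gained, and with libraries rescaled to the same sum 1 was lost. Crx, the homeodomain factor of rods and cones, had 20, 24, 21 and 158. Nrl, which sets rod fate, had 35, 26, 24 and 116, and its target Nr2e3 had 11, 15, 38 and 107. Samd7 had 10, 13, 8 and 72. Mef2d had 90, 62, 98 and 271, one of the 5 highest PN15 values of all symbols, and its H3K27me3 went from 81 to 7. Mef2d thus gained from a high start, and Mef2c was at 1 and 2. Factors that act earlier were marked at both ends and not called. Otx2 had 73, 58, 33 and 140, Neurod1 had 92, 52, 47 and 113, and Prdm1 had 117, 95, 95 and 138.

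The promoter windows of 5 gained genes and 1 lost gene are shown to let the reader see the sequence around the starts of the genes that results turn on. They run from 250 bases before to 50 bases after the RefSeq start, on the gene's own strand, in build GRCm38.p6, which is not the build of the occupancies. Capitals mark TAATCC, a core recognised by homeodomain factors of the Crx and Otx family, or its reverse complement GGATTA. Of all 27025 symbols with a window, 7.16% held it on either strand.
Cnga1, chr5:72642703-72643002, minus strand: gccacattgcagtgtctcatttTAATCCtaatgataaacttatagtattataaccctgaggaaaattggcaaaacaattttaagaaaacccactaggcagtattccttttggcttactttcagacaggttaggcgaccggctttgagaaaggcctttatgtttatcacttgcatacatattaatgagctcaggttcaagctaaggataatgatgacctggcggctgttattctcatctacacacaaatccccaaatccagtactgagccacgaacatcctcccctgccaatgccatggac
Aipl1, chr11:72037460-72037759, minus strand: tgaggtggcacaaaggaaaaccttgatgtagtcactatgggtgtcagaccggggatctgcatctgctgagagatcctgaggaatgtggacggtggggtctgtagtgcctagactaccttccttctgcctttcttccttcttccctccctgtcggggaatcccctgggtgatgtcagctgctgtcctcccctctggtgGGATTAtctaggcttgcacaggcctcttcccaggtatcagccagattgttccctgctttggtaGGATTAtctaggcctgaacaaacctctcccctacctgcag
Crx, chr7:15879906-15880205, minus strand: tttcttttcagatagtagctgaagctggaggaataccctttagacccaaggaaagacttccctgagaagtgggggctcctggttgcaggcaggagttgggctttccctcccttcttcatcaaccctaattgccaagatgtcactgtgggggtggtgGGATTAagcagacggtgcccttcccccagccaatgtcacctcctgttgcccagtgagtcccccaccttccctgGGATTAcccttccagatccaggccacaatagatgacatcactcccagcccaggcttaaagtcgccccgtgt
Sag, chr1:87803430-87803729, plus strand: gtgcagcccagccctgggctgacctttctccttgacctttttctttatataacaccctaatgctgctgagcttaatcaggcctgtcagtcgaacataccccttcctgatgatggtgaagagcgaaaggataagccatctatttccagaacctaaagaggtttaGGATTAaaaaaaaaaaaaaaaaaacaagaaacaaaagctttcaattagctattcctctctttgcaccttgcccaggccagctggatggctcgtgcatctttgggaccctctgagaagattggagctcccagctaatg
Impg1, chr9:80465389-80465688, minus strand: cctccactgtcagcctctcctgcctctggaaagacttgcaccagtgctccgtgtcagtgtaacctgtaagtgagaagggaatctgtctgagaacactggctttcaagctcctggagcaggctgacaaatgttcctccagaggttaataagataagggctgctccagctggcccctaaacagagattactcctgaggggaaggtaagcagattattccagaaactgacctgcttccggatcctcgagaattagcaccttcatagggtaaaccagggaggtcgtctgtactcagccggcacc
Foxn4, chr5:114273712-114274011, minus strand: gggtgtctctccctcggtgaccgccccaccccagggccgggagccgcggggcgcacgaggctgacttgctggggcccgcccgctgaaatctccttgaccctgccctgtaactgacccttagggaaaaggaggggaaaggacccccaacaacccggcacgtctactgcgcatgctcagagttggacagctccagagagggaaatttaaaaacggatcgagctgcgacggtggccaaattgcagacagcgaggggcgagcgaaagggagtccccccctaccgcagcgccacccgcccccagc
Crx and Aipl1 each held the core 2 times, Cnga1 and Sag held it 1 time, and Impg1 and Foxn4 held none in this window. These windows were picked by the role of the genes and do not stand for the gained symbols, of which 46 of the 463 with a window (9.94%) held the core. The core was in 34 of the 615 lost symbols with a window (5.53%) and in 6.32% of all measured symbols with one. Among the largest called gains that were not displaced 2 of the 8 with a window held it. A match is a description of letters and says nothing of binding. These shares are not compared, and any comparison of motifs or base composition between gained, lost and all symbols is void, because windows were given for 77.0% of the gained and 73.0% of the lost symbols only.

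At the ribbon synapse, which joins photoreceptors to bipolar and horizontal cells, 8 of 19 genes gained (42.1%, beside 3.12% of all symbols) and 1 was lost, with a median of 0.61. Under lowess centring 6 gained. Cabp4, the calcium binding protein of the rod terminal, had 6, 15, 9 and 156. The window of its neighbour Gpr152 gave nearly the same values (7, 13, 8 and 155), so reads of the shared region cannot be assigned to either gene. The calcium channel genes Cacna2d4 (17, 26, 39 and 117) and Cacna1f (29, 19, 10 and 73) gained. So did Cplx4, a complexin of ribbon synapses, with 19, 23, 11 and 101. Slc17a7, the glutamate transporter that loads synaptic vesicles, had 39, 29, 58 and 126, with H3K27me3 of 234 at E17.5 and 38 at PN15. Scaffold genes shared with other synapses were not called: Bsn had 44 at E17.5 and 47 at PN15, and Rims1 had 51 and 61. Rimbp2 was lost, with 53, 28, 35 and 25.

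In the visual cycle, which restores the chromophore, and other retinoid handling 4 of 13 genes gained (30.8%) and 3 were lost (23.1%), beside 3.12% and 4.31% of all symbols, with a median of 0.68. With libraries rescaled to the same sum 3 gained and 4 were lost. Rdh8 (7, 10, 13 and 103) and Rdh12 (28, 16, 8 and 70), the retinol dehydrogenases of photoreceptors, gained. Rbp3, the retinoid carrier that photoreceptors secrete, had 17, 28, 53 and 127 and gained. Rlbp1, the retinaldehyde binding protein of Mueller glia and pigment epithelium, had 37, 26, 9 and 6 and was lost, while its H3K27me3 went from 8 to 136. The retinol uptake receptor Stra6 (24, 18, 2 and 8) was also lost. Rgr, an opsin of pigment epithelium and Mueller glia, was a gain at a low level, with 3, 8, 1 and 14. Rpe65, the isomerase of the pigment epithelium, had 1 at E17.5 and 2 at PN15.

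Of 11 cone genes 2 gained (18.2%, beside 3.12% of all symbols), Grk1 and Gnb3 (25, 26, 43 and 69), and none was lost. The median was 0.00. Gnb3 is also used by bipolar cells, and Grk1 by rods. Opn1sw, the short wavelength cone opsin, had 11, 9, 2 and 2, and Opn1mw had 2, 3, 0 and 1. The cone transducin Gnat2 had 32, 11, 4 and 24 and the cone channel subunit Cnga3 had 24, 17, 9 and 24. None of these opsin, transducin and channel genes was called.

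Cilium genes were marked at E17.5 and stayed so. Of 32 genes of the BBSome, the intraflagellar transport and the transition zone 1 gained, Arl13b (50, 38, 21 and 112), and none was lost, with a median of 0.51. That 1 call was lost when libraries were rescaled to the same sum or changes were centred on the lowess curve. Cep290 had 63 at E17.5 and 97 at PN15, Ift88 had 61 and 54, and Bbs4 had 51 and 79. Outer segment genes gained at 18 of 21 and this cilium list at 1 of 32, against 3.12% of all symbols. The contrast holds for these lists only. Fam161a (13 at E17.5 and 97 at PN15) and Mak (21 and 88), of the photoreceptor cilium, were in neither list and gained. They were picked by role after their values were seen.

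**Figure D2:**
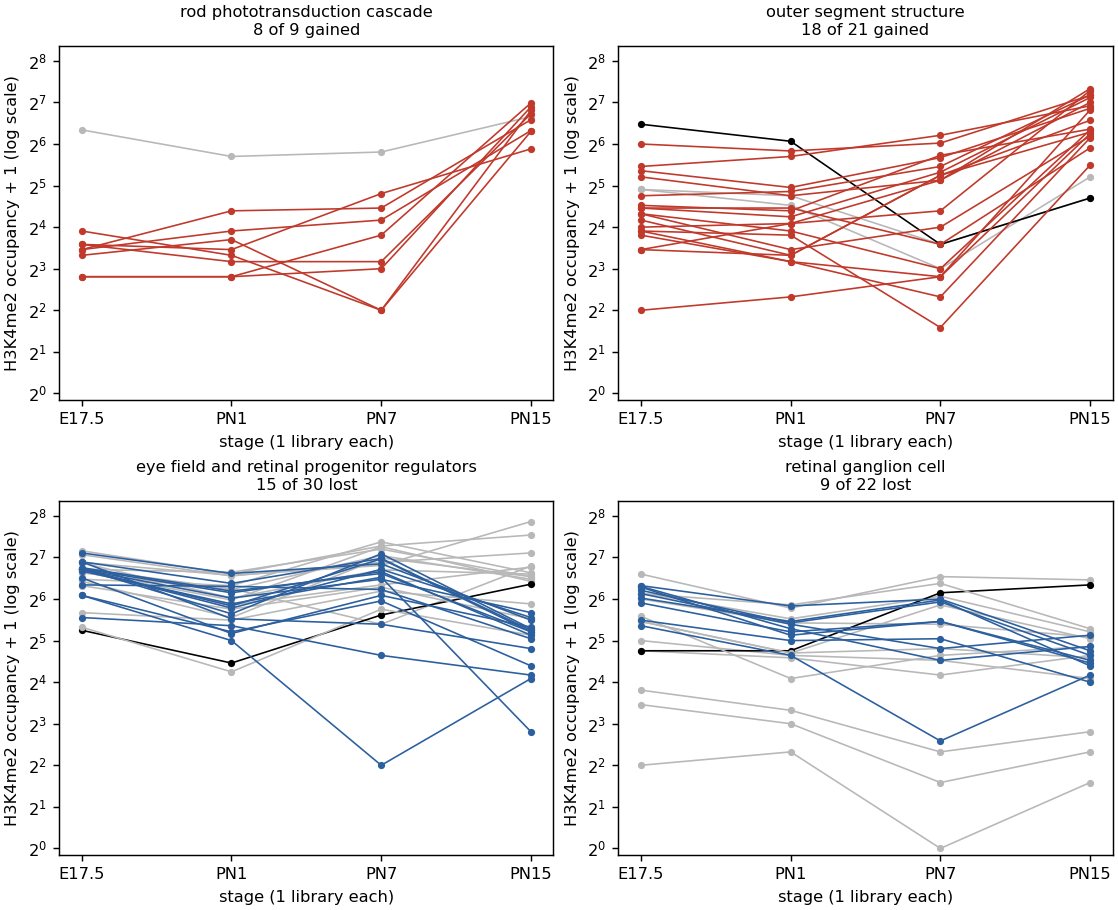
H3K4me2 occupancy plus 1 (log2 axis) of each member of 4 gene lists at the 4 stages, 1 library each. Red lines are gained, blue lines lost, black lines called in the other direction and grey lines not called. The 8 gained rod genes lie higher at PN15 than at any of the 3 earlier stages, while most of the 15 lost progenitor genes are still high at PN7.

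Of the 25 largest called gains, 8 were displaced symbols and are left aside. The other 17 included Rcvrn, Impg1, Cabp4 with Gpr152, Cnga1, Pde6a, Rdh8, Aipl1 and BC027072 (10, 16, 34 and 127), all described above or members of the photoreceptor lists. Kcnj14, an inward rectifier potassium channel, had 7, 2, 2 and 115. Mpp4, a membrane guanylate kinase of photoreceptor terminals, had 11, 12, 15 and 164. Ankrd33, an ankyrin repeat gene, had 12, 9, 18 and 125. Rabgef1, an exchange factor for Rab proteins of endosomes, had 7, 11, 4 and 85. Fcer1g, a signalling subunit of Fc receptors that immune cells use, had 4, 7, 12 and 83. Of the 11 genes of the microglia list none was called, but only 4 of them were above the olfactory 99th percentile in a library. The summed value of the list was 53 at E17.5 and 45 at PN15, and Cx3cr1 had 3 and 5. The symbol 2610034M16Rik had 3, 8, 1 and 74 and BC016201 had 6, 6, 0 and 74. Gm1110 had 0, 3, 1 and 9, which is at least 5.60-fold higher against the E17.5 floor.

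Further photoreceptor genes outside the lists were picked by role after their values were seen. Nxnl1, which encodes the rod-derived cone viability factor, had 17, 16, 31 and 160. Rd3, which carries guanylate cyclase to the outer segment, had 31, 21, 40 and 132, and Ppef2, a photoreceptor phosphatase, had 23, 20, 31 and 144. Of genes mutated in inherited retinal disease, Fam161a had 13, 11, 3 and 97, and Mak had 21, 27, 21 and 88, both of the photoreceptor cilium. Rtbdn, retbindin, had 42, 35, 56 and 162, with H3K27me3 of 254 at E17.5 and 23 at PN15. All 6 gained, and in each the PN15 value was the highest of the 4 stages.

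Many regulators of the eye field and of retinal progenitors lost the mark. Of 30 measured, 15 were lost and 1 gained, with a median of -0.92, where 4.31% of all symbols were lost. Igf2bp1, an RNA binding protein of embryonic tissues (mm9 chr11:95818477-95867254, minus strand), had 101, 58, 91 and 6, the largest loss of the symbols that were not displaced. Foxn4, which acts in progenitors of amacrine and horizontal cells, had 118, 45, 41 and 27. Pax6 had 137, 97, 114 and 44. Sox2 had 104, 56, 124 and 36, and Nr2e1 had 118, 82, 125 and 37. The values of Pax6, Sox2 and Nr2e1 were thus as high or nearly as high at PN7 as at E17.5 and lower at PN15. Lhx2, needed for the eye field and later in Mueller glia, had 104, 64, 88 and 50. Other eye field genes were not called: Rax had 105 at E17.5 and 110 at PN15, Six6 had 133 and 137, and Six3 had 116 and 96. Lin28a was the gain (37, 21, 48 and 81), and this call was lost under each of the 3 other scalings.

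In 12 of the 15 lost progenitor regulators H3K27me3 was at least 2-fold higher at PN15 than at E17.5, and their median went from 28 to 164. Igf2bp1 had 16 and 236, Pax6 had 4 and 178, and Sox2 had 26 and 182. Such a rise was not confined to the lost members, since 20 of all 30 in the list had it. Over all lost symbols the share with such a rise was 17%. Vax1 and Tbx5 differed, with H3K27me3 of 341 and 401 already at E17.5 and 238 and 169 at PN15. PN7 H3K4me2 was above the midpoint of E17.5 and PN15 in 12 of these 15 and in 20 of all 30 members, against 22.9% of all lost symbols.

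The proneural basic helix-loop-helix genes had 4 of 13 lost (30.8%, beside 4.31% of all symbols) and none gained, with a median of -0.79. Under lowess centring 7 of the 13 were lost. Olig2 had 80, 54, 51 and 21, Neurog1 had 43, 11, 22 and 10, and Ptf1a had 58, 42, 32 and 24. In the Notch pathway 4 of 20 (20%) were lost and none gained, with a median of 0.03. They were Dll3 (80, 75, 47 and 15), Heyl (57, 52, 22 and 17), Mfng (58, 38, 40 and 19) and Lfng (89, 46, 50 and 32). Mfng and Lfng encode glycosyltransferases that tune Notch, while the related Rfng had 63, 28, 71 and 96 and was not called. The receptor Notch1 (81 and 70), the ligand Dll1 (115 and 122) and the target Hes1 (100 and 85) were not called.

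Cell cycle genes for the most part were still marked at PN15, a stage when retinal neurons no longer divide. Of 44 genes of the cycle and of DNA replication, 4 were lost (9.09%, beside 4.31% of all symbols) and 1 gained (2.27%, beside 3.12%). The median was -0.22, and -0.45 with changes centred on the lowess curve. The lost ones were Tk1 (68, 61, 28 and 28), Rrm2 (109, 44, 39 and 47), Cdc25b (69, 36, 46 and 31) and Ccnd2 (109, 58, 88 and 45). Mki67 had 81 at E17.5 and 88 at PN15, Pcna had 83 and 110, Mcm2 had 54 and 59, and Ccnd1 had 118 and 120. Some mitotic genes lay lower without being called, among them Birc5 (82 and 42) and Cdk1 (69 and 39). E2f3 gained, with 65, 44, 169 and 168, and was not called under lowess centring. None of 10 CDK inhibitor and retinoblastoma family genes was called. Rb1 had 60 and 73, and Cdkn1b had 97 and 107.

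Many genes of the early born neurons lost the mark, beside 4.31% lost and 3.12% gained over all symbols. In the ganglion cell list 9 of 22 (40.9%) were lost and 1 gained, with a median of -0.97. With libraries rescaled to the same sum 14 of these 22 were lost, where the count over all symbols went from 863 to 1279. Pou4f2, which acts in ganglion cell differentiation, had 64, 43, 62 and 20. Rbpms had 77, 34, 43 and 21, Gap43 had 78, 38, 22 and 28, and Isl1 had 44, 31, 32 and 15. Nefh, the heavy neurofilament subunit, gained instead, with 26, 26, 70 and 80, and its H3K27me3 went from 457 to 45. Its light partner Nefl was lost, with 59, 36, 43 and 22. Thy1, at 26 and 24, and Pou4f1, at 43 and 32, were not called. Among amacrine genes 7 of 18 (38.9%) were lost and 1 gained, with a median of -1.05. Gad1, which makes GABA, had 54, 37, 36 and 23, and Tcfap2b had 54, 42, 22 and 18. The glycine transporter Slc6a9 was the gain (49, 48, 72 and 104), and it was not called under any of the 3 other scalings. Among horizontal cell genes 2 of 7 were lost, Lhx1 (71, 38, 32 and 19) and Ptf1a, and 4 of 7 under lowess centring. As above, a smaller share of these cells in the tissue and less mark in each cell cannot be told apart.

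Bipolar cells and Mueller glia arise around and after birth, like most rods. Of 15 bipolar genes 2 gained (13.3%, beside 3.12% of all symbols) and 1 was lost, with a median of 0.00. Under lowess centring 1 gained. Prkca, the protein kinase C of rod bipolar cells, had 63, 47, 77 and 154. Nyx, nyctalopin, had 1, 9, 2 and 17, and its E17.5 value stands for 2 reads, so the ratio of 17 has a counting interval of 3.77 to 142. Grm6, the receptor of ON bipolar cells, had 30, 16, 20 and 33, with H3K27me3 of 451 at E17.5 and 121 at PN15. Of 16 Mueller glia genes 5 were lost (31.2%, beside 4.31% of all symbols) and none gained, with a median of -0.57. They were Rlbp1, Dkk3 (84, 50, 31 and 31), Sox9 (118, 88, 126 and 48), Sox8 (104, 81, 80 and 49) and Car14 (90, 64, 36 and 44). Glul, glutamine synthetase, had 79, 67, 94 and 111 and was not called.

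Of the 25 largest called losses 8 were displaced symbols. The other 17 held 2 with a high start, Igf2bp1 and Ng23 (93, 47, 15 and 7). The remaining 15 started from 9 to 32 and had 0 to 3 at PN15, where 1 read was taken as a value of 1. Among them were regulators of other tissues, Pax5 of B cells (27, 14, 5 and 2), Ferd3l of the ventral midbrain (24 and 1) and Hoxd10 (12 and 0, at least 4-fold lower against the PN15 floor). Krt8 (27 and 2) and Krt15 (22 and 1) encode epithelial keratins. Tnnt2, cardiac troponin T, had 24 and 2. Tekt4, a protein of motile cilia, had 25 and 1, a ratio with a counting interval from 4.30-fold to 1015-fold lower. Gpr143, the ocular albinism gene of pigment cells, had 16 and 1.

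Hox genes had 14 of 39 lost (35.9%, beside 4.31% of all symbols) and none gained, with a median of -1.21. These regulators of trunk identity are silent in the retina, and their H3K4me2 at E17.5 was low, with a median of 13, and at PN15 it was 5. Hoxa5 had 22 and 2, Hoxb4 had 18 and 2, and Hoxb7 had 29 and 4. Further regulators of other regions, picked by role after their values were seen, showed the same pattern from a higher start. Nkx2-2 had 47, 21, 23 and 7, Pax3 had 34, 24, 12 and 5, and Pax7 had 23, 13, 9 and 3. In these 3 genes H3K27me3 was between 566 and 670 at E17.5 and between 240 and 308 at PN15. Others picked this way were Cyp26a1, which degrades retinoic acid (96, 62, 68 and 23), Crabp2, which binds it (107, 47, 35 and 27), the growth factor Mdk (77, 45, 43 and 15) and Opn4, the melanopsin of light sensitive ganglion cells (15, 6, 1 and 1). All of them were lost.

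In signalling and matrix families the counts are to be read beside 4.31% lost and 3.12% gained over all symbols. Of 40 collagen genes 9 were lost (22.5%) and 1 gained (2.5%). Of 62 Wnt, Fgf and Bmp ligand genes 8 were lost (12.9%) and 3 gained (4.84%), and of 69 axon guidance genes 9 were lost (13.0%) and 1 gained (1.45%). With libraries rescaled to the same sum the losses were 15 collagen, 12 ligand and 15 axon guidance genes, of 1279 over all symbols. Wnt7b had 79 at E17.5 and 18 at PN15, Wnt16 had 70 and 13, Ephb4 had 103 and 30, and Col9a2 had 46 and 9. Of 90 potassium channel subunits 6 gained (6.67%) and 7 were lost (7.78%), and in that rescaling 5 and 14. The lost ones included Kcna1 (101 and 25) and Kcnj13 (12 and 2). Of 71 neurotransmitter receptor subunits 3 gained (4.23%) and 6 were lost (8.45%), and in that rescaling 3 and 11. The GABA-C receptor genes Gabrr2 (4 and 31) and Gabrr1 (2 and 14) gained, and the metabotropic receptor Grm3 (59 and 22) and the nicotinic subunit Chrna4 (62 and 22) were lost. Of 58 clustered protocadherins, adhesion molecules with alternative first exons, 6 gained (10.3%) and none was lost, all 6 at 32 or below at PN15. None of these 6 was called when libraries were rescaled to the same sum.

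Ribosomal and other widely expressed genes were marked at both ends and not called. None of 77 cytosolic ribosomal protein genes and none of 15 widely expressed genes was called, with medians of 0.16 and 0.37, beside 0.13 over all symbols. With libraries rescaled to the same sum 1 of the 77 was lost. Actb had 84, 60, 59 and 68 and Gapdh had 106, 55, 77 and 143. Of 85 nuclear genes of oxidative phosphorylation 2 were lost, the tissue-restricted subunit genes Cox4i2 (62 and 15) and Ndufa4l2 (95 and 41). In glycolysis 4 of 20 gained (20%, beside 3.12% of all symbols) and none was lost: Aldoc (11, 10, 13 and 61), Eno2 (49, 35, 63 and 121), Gpi1 (56, 34, 51 and 130) and Hk1 (65, 51, 78 and 140). Only 1 of 20 was called under lowess centring. Aldoc and Eno2 are the brain forms of their enzymes, and the forms Aldoa (106 and 143) and Eno1 (103 and 121), used by many other tissues, were not called. Enzymes that write or erase histone methylation had 1 of 19 gained (5.26%), Kdm5b (44, 29, 35 and 91). Clock genes had 1 of 17 gained (5.88%), Cry2 (80, 57, 72 and 175). Both shares stand beside 3.12% of all symbols, and neither call held under the 3 other scalings. Of 15 early response genes, which handling of tissue can induce, 2 gained (13.3%, beside 3.12% of all symbols), Nr4a1 (33, 22, 54 and 99) and Junb (91, 76, 220 and 218), and 1 of the 15 under lowess centring.

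Markers of other cells that the dissection could hold ranged widely, and the calls among them are to be set beside 3.12% gained and 4.31% lost over all symbols. Of the pigment epithelium list Rpe65 and Tyr had 2 or less at both stages, while Mitf had 57 and 67, Si 56 and 49 and Dct 29 and 24, and none of its 11 genes was called. For lens 1 of 19 gained (5.26%), Cryab (3 and 16), a crystallin that is also used outside the lens, and the summed value of the list was 164 at E17.5 and 109 at PN15. Vascular genes had 4 of 12 lost (33.3%), among them Cldn5 (40, 19, 28 and 13) and Cdh5 (20, 15, 5 and 4), and their summed value was 320 and 179. Kdr, the highest of them, had 112 and 70 and was not called. Their median of -1.38 became -0.63 once the genes at 0 in a library were set to their bound. The haemoglobin gene Hbb-b1 had 4 at both stages, and of 7 erythroid genes 1 was lost (14.3%), while Klf1 had 45 at both stages. Of 10 astrocyte and oligodendrocyte genes 1 was lost (10%), Pax2 (49 and 11), which also acts in the optic stalk, and Mbp had 62 and 76. The part of vascular cells in other losses was not tested.

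Calls in further lists are to be read beside 3.12% gained and 4.31% lost over all symbols. Large families with shares below both included the zinc finger protein genes and the olfactory receptors. Of 322 zinc finger genes 4 gained and 4 were lost (1.24%) once a displaced symbol is left aside, and with it 1.55% gained. Of 1047 olfactory receptors 5 gained (0.478%) and 2 were lost (0.191%). Zfp827 had 45 at E17.5 and 119 at PN15, and Zfp811 had 67 and 24. Olfr1034 had 0 and 6, and the other olfactory calls lay at 12 or below in both libraries. Of 64 replication-dependent histone genes 1 gained (1.56%), the linker histone Hist1h1c (66 and 165), and none was lost. Of 17 genes of nuclear architecture 1 was lost (5.88%), Hmga2 (105, 49, 135 and 38), and none gained. Of 101 keratin and keratin-associated genes 5 were lost (4.95%) and 1, a displaced symbol, had a higher PN15 value. The lost shares of the nuclear architecture and keratin lists were thus above that of all symbols, from 1 and 5 genes.

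**Figure D3:**
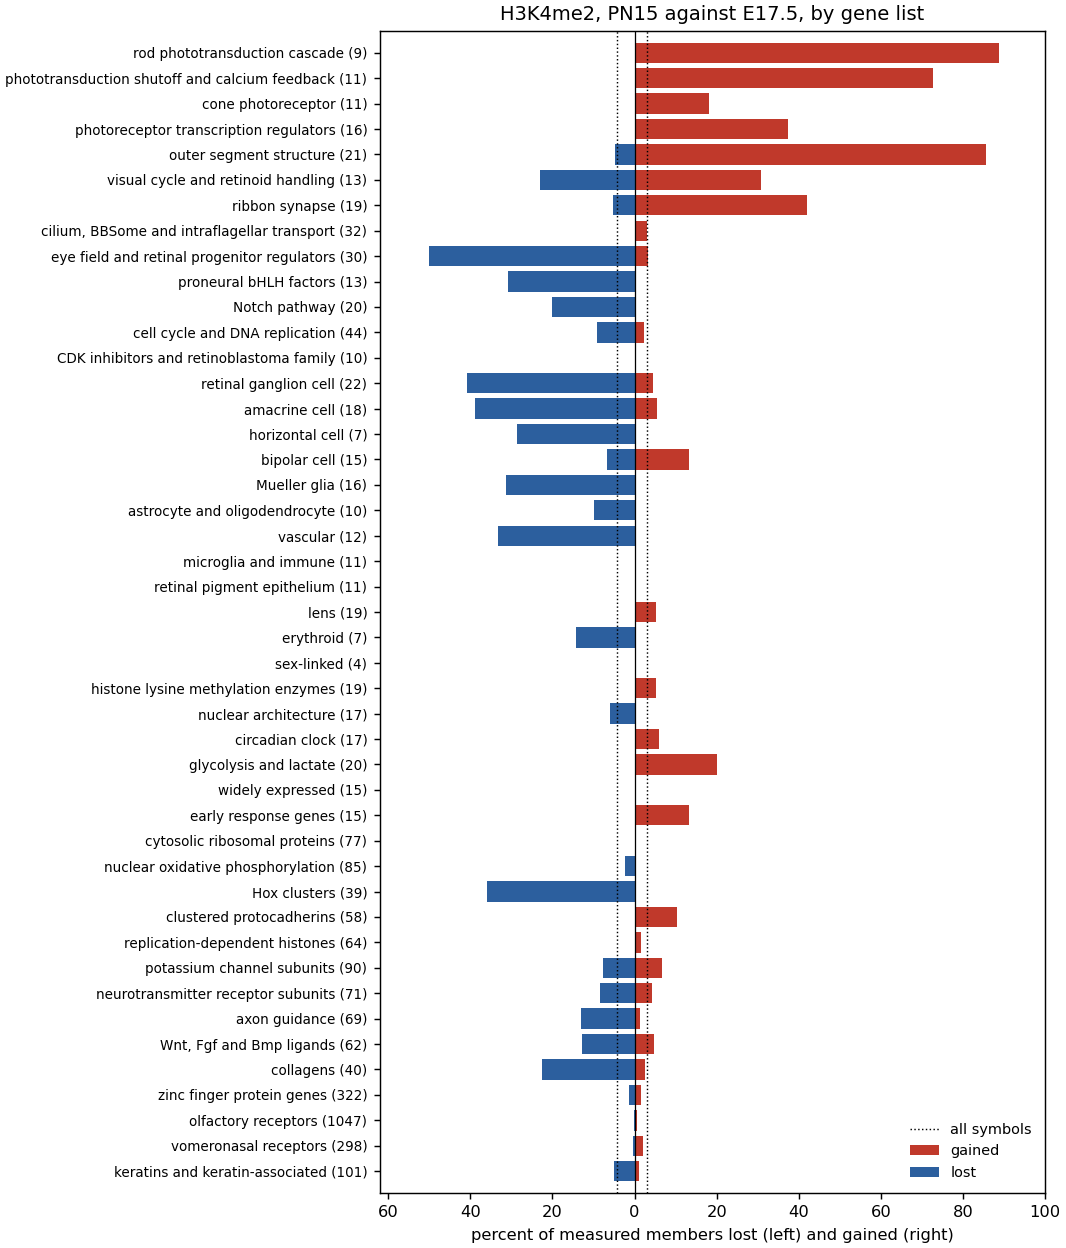
Percent of the measured members of each of 45 gene lists that gained (red, right) and lost (blue, left) H3K4me2 from E17.5 to PN15, with the number of members in brackets. Dotted lines mark 3.12% gained and 4.31% lost over all symbols; the 7 calls of vomeronasal receptors and 1 of keratin-associated genes are of displaced symbols.

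The 5 highest values of each end had 2 symbols in common. Hjurp, which loads the centromeric histone, had 283 at E17.5 and 278 at PN15, and A730008H23Rik at the same place had 282 and 278. Trp53, among the 5 highest at E17.5 only, had 176 and 214. At PN15 the 5 highest also held Mef2d, Pcdh10 (156 and 269) and 4930525F21Rik. The last had 56, 9, 0 and 261, so that the gain of this symbol followed a value of 0 at PN7.

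The call fixes which end of the course is higher, so the values at PN1 and PN7 are what the call did not use. Without the displaced symbols, the gained had medians of 34, 26, 36 and 96 over the successive stages. PN7 was at or below the midpoint of E17.5 and PN15 in 93.0% of them, which is close to the 90.5% of all symbols. Over all symbols the median change from PN7 to PN15 was 1 on the log2 scale, so much of this step was common to the table, and for gained symbols it was 1.42. From PN1 to PN7, where the median change over all symbols was -0.50, gained symbols had 0.26, a wider gap to all symbols than in the step from PN7 to PN15. The lost symbols had medians of 40, 26, 20 and 14. Of them 97.2% were already lower at PN1 than at E17.5, as were 72.9% of all symbols, with a median change of -0.67 against -0.42 over all symbols, and 62.4% were at or below the midpoint at PN1, where 75.8% of all symbols were. These symbols were chosen for an E17.5 value above that of PN15, and the step to PN1 starts from the same E17.5 library. From PN1 to PN7 they had -0.38, a smaller drop than that of all symbols. From PN7 to PN15 their median change was -0.56 where all symbols had 1. That step ends in the PN15 library by which both the gained and the lost symbols were chosen. Part of their departure from all symbols in it therefore follows from the call.

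**Figure D4:**
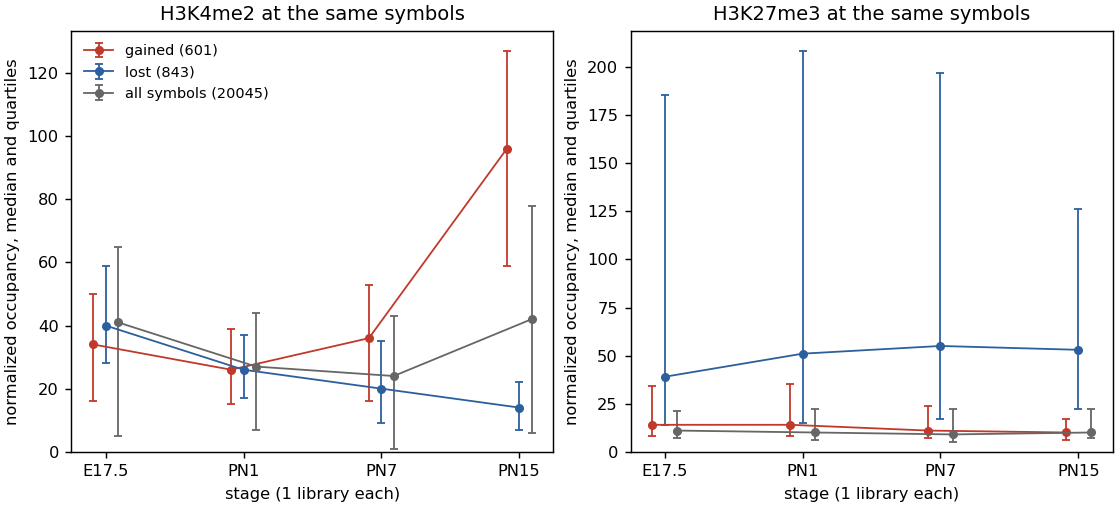
Median and quartiles of H3K4me2 (left) and H3K27me3 (right) occupancy at the 4 stages for the 601 gained, 843 lost and all 20045 symbols, 1 library for each point. Gained symbols have median H3K4me2 of 36 at PN7 and 96 at PN15, and lost symbols have median H3K27me3 of 39 to 55 where all symbols have 9 to 11.

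H3K27me3 was common at symbols that lost H3K4me2. It had no part in the call itself, but entered the sum that picked the entry of a symbol with several. The displaced symbols are left out of the counts that follow. At E17.5, 45.7% of the lost and 18.8% of the gained symbols had H3K27me3 of at least 50, against 13.0% of all. Among symbols with a single entry these shares were 45.3%, 19.4% and 12.7%. The share lost went up with the level of H3K27me3 at E17.5, from 1.31% of symbols under 10 to 23.0% of those at 200 and over. Against the PN15 level of H3K27me3 the range was wider, from 0.625% under 10 to 48.4% at 200 and over, and of the 221 symbols in that last class none gained. The share gained varied less with H3K27me3 at E17.5, between 2.32% and 4.66%. Of the 113 gained symbols with H3K27me3 of at least 50 at E17.5, 101 had at least 2-fold less at PN15, with a median going from 124 to 27. Of the 385 such lost symbols 130 did, with a median going from 214 to 128. Over all 2571 such symbols 1302 did, from 132 to 74. The antibody catalogue numbers of the marks are the other way round in the labels than in the methods, and the mark was taken from the sample titles.

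**Figure D5:**
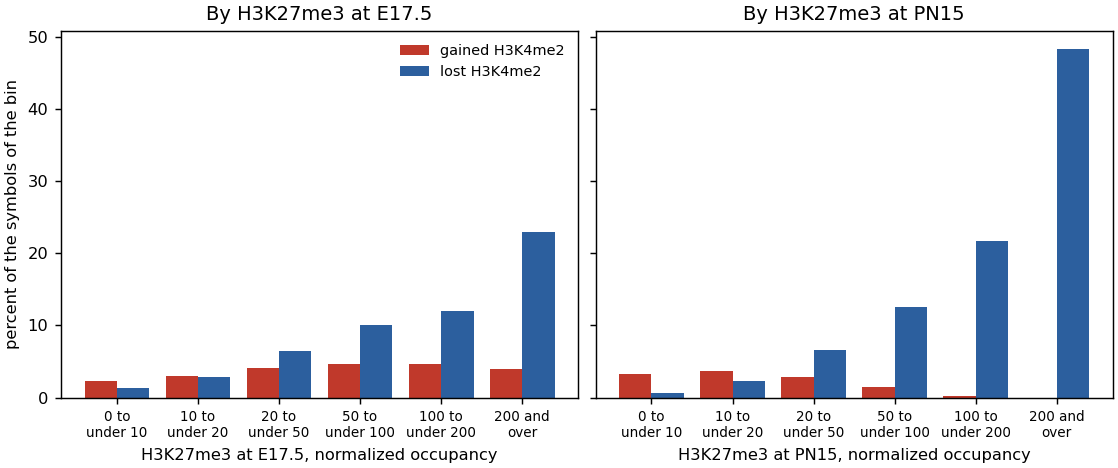
Percent of symbols that gained (red) or lost (blue) H3K4me2 from E17.5 to PN15, in 6 classes of H3K27me3 occupancy at E17.5 (left) and at PN15 (right), without the displaced symbols. The share lost is 1.31% in the lowest and 23.0% in the highest class at E17.5, and 0.625% and 48.4% at PN15.

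On the genome, calls were found on all 20 chromosomes with at least 100 symbols. Without the displaced symbols, the share gained was between 1.86% (chromosome 16) and 4.99% (chromosome 19). The share lost was between 1.86% (chromosome X) and 5.56% (chromosome 3). Windows of neighbouring symbols can overlap, as for Cabp4 and Gpr152. Of gained symbols with a position in mm9, 88 of 617 (14.3%) had a window that overlapped that of any other symbol, and of lost ones 62 of 843 (7.35%), where 16.4% of all symbols did.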

How the data were processed

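The authors aligned ChIP-Seq reads of mouse retina to mm9 using Bowtie 0.12.4, kept unique positions, and assumed fragments of 190 bp. The deposited values are scores, namely sums of reads within 2.5 kb of each RefSeq TSS that the authors normalized to the total mapped reads and rounded to whole numbers. They are not counts, so no count-based test was run, and the Poisson intervals of the calls rest on reads inferred from these values. Total reads per library are not given in the sources used here. A trailing .number was dropped from the 25152 entries, and where entries shared a symbol, the one whose 8 columns had the highest sum stood for it. Ratios are log2(PN15 + 1) minus log2(E17.5 + 1). The value of 1 read was taken from steps in the histogram of the deposited numbers at E17.5, and at PN15, where none were seen, as the largest value that the numbers allow. It gave exact Poisson 95% intervals and a floor of 3 reads, for counting error only. The symbols, the 45 gene lists and the named genes were chosen with earlier results of these data known. Named were the 25 largest called gains and losses, up to 4 called members a list in each direction with those whose role a sentence needs, the 5 highest values at each end, and 15 genes picked by role after their values were seen. Of list members 8 had no entry. Gene positions are from Gencode vM1 (mm9), promoter windows from RefSeq (GRCm38.p6), matched by symbol or unique older symbol. Alternatives were other folds, pseudocounts, scalings, entries and filters on low values. Steps were tested on simulated data and run with numpy 2.4.6, statsmodels 0.14.6, scipy 1.17.1, matplotlib 3.10.9 and pandas 2.3.3 under Python 3.11.15.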

Additional observations from a re-analysis of the deposited data

How the results depend on the processing

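The counts of 626 gained and 863 lost symbols moved with the limit: 1572 gained and 2348 lost on 2-fold alone (7.84% and 11.7%), 2142 gained and 1143 lost at a fold of 1.5, where gains outnumbered losses, and 145 gained and 208 lost at a fold of 4. Gains also moved with the scaling, to 351 with libraries rescaled to the same sum and 399 with changes centred on a lowess curve. The median log2 ratio of 0.13 was 0.12 with a pseudocount of 5, 0.19 over symbols with a mean of at least 10, and reversed to -0.076 with equal sums. Leaving out the displaced symbols, chosen after seeing the data, gave 601 gained and 843 lost. No paired analysis was possible because each group has 1 library, and for the same reason no library could be left out. Depth limits losses at low values: a PN15 value of 3 or less stands for at most 3 reads on the step used here.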
